A study of Homo sapiens with 12 samples.

Results

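The endoplasmic reticulum (ER) stress response was followed through 10 genes taken by name from the gene tables, HSPA5, HSP90B1, CALR, DNAJB9, SDF2L1, PDIA4, CRELD2, MANF, HERPUD1 and XBP1. They are 10 of the 58721 genes listed, and each name was found once. RNA-seq of polyA RNA was performed on 2 human pancreatic cancer cell lines, Pa-Tu-8902 (Tu8902 in the sample labels) and MIA PaCa-2 (MiaPaCa2), that carry a doxycycline (dox)-inducible short hairpin against GOT1, the cytosolic aspartate aminotransaminase. Every group, untreated libraries included, held this hairpin. The lines were stably transduced and drug-selected cultures, and 3 untreated libraries (mnsdox) and 3 libraries after 5 days of dox (plsdox), at a labelled concentration of 1 µM/mL, were available for each line. Libraries with a non-targeting hairpin and dox were not analysed here, so dox itself and GOT1 loss cannot be told apart. Nothing in the labels says whether the 3 libraries of a group came from separate cultures, and p-values then measure only the spread between these libraries.

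Secretory and membrane proteins fold in the ER with the help of chaperones and disulphide isomerases. When unfolded proteins accumulate, the sensors IRE1 (ERN1), PERK (EIF2AK3) and ATF6 are activated. IRE1 cuts a short intron out of XBP1 mRNA so that a longer transcription factor is made, ATF6 is released from the membrane by proteolysis, and PERK phosphorylates a translation factor, which favours translation of ATF4. XBP1 and the released part of ATF6 raise transcription of chaperones and of genes that retrotranslocate and degrade misfolded proteins, largely through short promoter motifs called ER stress elements. The exocrine pancreas, which secretes digestive enzymes, depends on this pathway.

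The classical ER stress element, CCAAT and CCACG separated by 9 bases, was searched on both strands of RefSeq promoter windows (build GRCh38.p14, 250 bases before to 50 after a start). All 10 genes had at least 1 window. The element was present in 27 of 35116 windows (0.0769%) and in the windows of 5 of the 10 genes. It is shown because the factors of the pathway are known to act through it. The 10 were chosen as genes of this pathway, so the frequency of the element among them is not independent of that choice. The conserved ends are in capitals, and each is written on the strand on which it reads from CCAAT to CCACG.
HSPA5 (chr9:125241391-125241409, minus strand): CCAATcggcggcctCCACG
HSP90B1 upstream match (chr12:103930216-103930234, plus strand): CCAATcggaaggagCCACG
HSP90B1 downstream match (chr12:103930321-103930339, minus strand): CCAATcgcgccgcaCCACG
CALR (chr19:12938384-12938402, minus strand): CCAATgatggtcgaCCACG
CRELD2 (chr22:49918554-49918572, minus strand): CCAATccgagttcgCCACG
XBP1 (chr22:28800603-28800621, minus strand): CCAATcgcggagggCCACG

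The element of CRELD2 lies between the RefSeq start sites of CRELD2 and of its divergently transcribed neighbour ALG12, a mannosyltransferase of N-glycosylation. It was found in the windows of both genes. The GENCODE release 44 spans given below begin further upstream for CRELD2 and HSP90B1, so these matches lie within those spans. A related element, ATTGG and CCACG separated by 1 base, was present in 19 of the 35116 windows (0.0541%), among them those of SDF2L1 and HERPUD1.
SDF2L1 (chr22:21642114-21642124, minus strand): ATTGGtCCACG
HERPUD1 (chr16:56932025-56932035, plus strand): ATTGGgCCACG
Every match of either element contains CCACG, which by itself was found in 38.1% of all windows and in windows of all 10 genes. TGACGTG, in 1.97% of windows, was found in none of the 10, and TGATGCAA, in 0.866%, only in HERPUD1. DNAJB9, PDIA4 and MANF held neither paired element in these windows, which says nothing on sequence outside them.

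The intron that IRE1 removes was taken as the stretch of 26 bases by which a pair of annotated XBP1 transcripts differ. The cut sites of IRE1 themselves were not mapped. In GENCODE release 44 this stretch lies in exon 4 of the 5 exons of XBP1-201, at chr22:28796128-28796153 on the minus strand of GRCh38, within the coding sequence. It is shown because its removal is what distinguishes the spliced isoform described below. The annotated stretch is in capitals, with 2 flanking bases on each side in lower case. It begins with GC and is followed by gc, so removing a stretch 2 bases further along would leave the same spliced sequence. Its exact ends are therefore not fixed by the annotation.
XBP1 intron: ccGCAGCACTCAGACTACGTGCACCTCTgc

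Total expected counts ranged from 26226537 to 43406137 per library. GOT1 was 78.3, 81.5 and 83.4 TPM (transcript abundance relative to the library's transcript total, corrected for length) in the untreated and 4.51, 3.29 and 3.68 TPM in the dox libraries of Pa-Tu-8902, and 44.1, 38.9 and 42.7 against 1.68, 1.95 and 1.87 TPM in MIA PaCa-2. All 12 libraries matched their labels in this respect. Summed epithelial markers were 8245 to 10523 TPM in Pa-Tu-8902, mesenchymal markers 4.62 to 12.9 TPM, whereas MIA PaCa-2 libraries held 2823 to 3156 and 3539 to 4228 TPM. The 4 mesenchymal markers did not all differ in the direction of their sum. Between untreated lines, 2 were called (as defined below) higher and 2 lower in Pa-Tu-8902, with log2 differences from -9.37 to 7.16. Acinar enzyme markers summed to at most 0.12 TPM in every library. Of 6 fibroblast markers 2 passed the filter on low counts in each line. The summed level of the 6 was higher with dox, 18.0 to 21.7 against 3.82 to 6.38 TPM in Pa-Tu-8902, where COL1A1 made up nearly all of it, and 340 to 398 against 192 to 248 TPM in MIA PaCa-2, where COL1A2 did. COL3A1, DCN and LUM were at most 0.14 TPM in every library, and the part of these markers in the results was not tested.

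To ask whether the ER stress response genes changed when GOT1 was silenced, dox and untreated libraries were compared within each line with edgeR. A gene was called at an adjusted p below 0.01 and a change of at least 1.5-fold, which is 0.585 on the log2 scale. DNAJB9 rose in both lines and was the only gene of the 10 called in either. Of the 10 genes 1 was called higher in Pa-Tu-8902, where 9.22% of the 14949 genes tested were, and none lower, where 7.12% were. In MIA PaCa-2, 1 of 10 was called higher, against 4.36% of 14589 genes, and none lower, against 7.64%. The 10 genes passed the filter on low counts in every comparison.

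Most of the other changes were small. By the adjusted p alone, 6 of the 10 genes were higher with dox in Pa-Tu-8902 (19.0% of all genes tested) and none lower (19.1%), and in MIA PaCa-2 4 were higher (12.6%) and none lower (14.7%). CALR, DNAJB9 and XBP1 were among them in both lines, HSP90B1, PDIA4 and CRELD2 in Pa-Tu-8902, and HERPUD1 in MIA PaCa-2. With single Pa-Tu-8902 libraries left out, the adjusted p stayed below 0.01 in 4 of 6 fits for PDIA4, in 3 for XBP1 and in 2 each for HSP90B1 and CRELD2, and all 4 missed it without untreated replicate 1 or without untreated replicate 2. With effective gene lengths as offsets in Pa-Tu-8902, CALR (adjusted p = 0.000573) and PDIA4 (0.00415) stayed below 0.01. DNAJB9 (0.0228), XBP1 (0.0278), HSP90B1 (0.0333) and CRELD2 (0.0373) then missed it. CALR in MIA PaCa-2 also missed it in that setting (0.0123). CRELD2 in Pa-Tu-8902 stayed below 0.01 in 4 of 10 other settings. In Pa-Tu-8902 the median log2 change of the 10 was 0.20, beside 0.0014 over all genes tested, and for MIA PaCa-2 it was 0.10, beside -0.0089. Normalized counts of dox and untreated libraries did not overlap for 7 of the 10 genes in Pa-Tu-8902 (58.5% of all genes tested) and for 8 in MIA PaCa-2 (52.9%). Together the 10 genes accounted for 1841 to 1860 TPM in untreated and 2280 to 2408 TPM in dox libraries of Pa-Tu-8902, and for 1385 to 1485 and 1581 to 1648 TPM in MIA PaCa-2. In bulk libraries, a change in the number of expressing cells and a change in RNA per cell cannot be told apart.

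**Figure D1:**
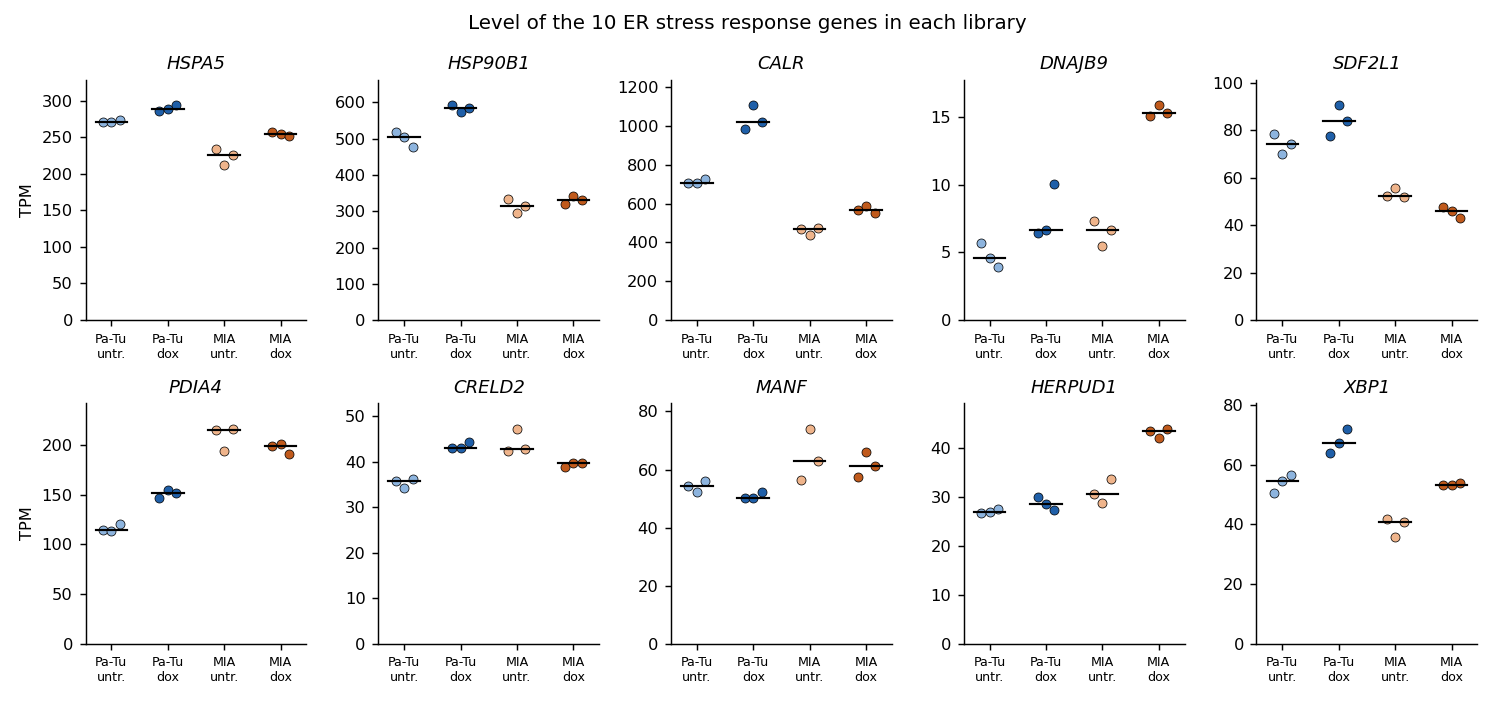
Level of each of the 10 ER stress response genes in TPM (y axis, from 0, a scale per gene) in the 3 libraries (points) of each of the 4 groups, with the group median as a bar. DNAJB9 separates dox from untreated libraries most widely in MIA PaCa-2, 15.1 to 15.9 against 5.46 to 7.34 TPM, while in Pa-Tu-8902 CALR has the largest difference in absolute TPM, 985 to 1106 against 705 to 727 TPM.

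**Figure D2:**
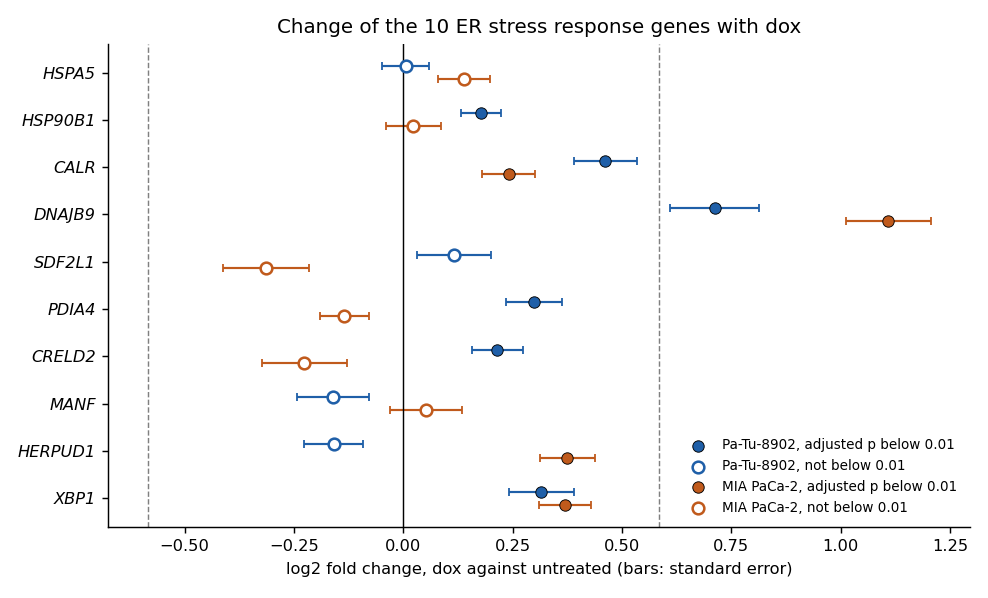
The log2 fold change of dox against untreated libraries (x axis) with its standard error for each gene in Pa-Tu-8902 (blue) and MIA PaCa-2 (orange), 3 libraries against 3. Filled points had an adjusted p below 0.01, dashed lines mark 1.5-fold, and DNAJB9 is the only gene beyond them.

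Levels, which are comparable between genes only as TPM, followed nearly the same order in the 4 groups. The abundant ER chaperones CALR, HSP90B1, HSPA5 and PDIA4 came first in that order in every group and held 82.2% to 88.1% of the summed TPM of the 10. DNAJB9 was lowest in every group, with medians of 4.56 and 6.68 TPM in untreated and dox Pa-Tu-8902 libraries and of 6.68 and 15.3 TPM in those of MIA PaCa-2. Neighbours in the order were separated in all 3 libraries except XBP1 and MANF in untreated Pa-Tu-8902 (50.4 to 56.5 and 52.2 to 56.0 TPM), HSPA5 and PDIA4 in untreated MIA PaCa-2 (212 to 233 and 194 to 216 TPM), and SDF2L1 and HERPUD1 in dox-treated MIA PaCa-2 (42.9 to 47.7 and 42 to 43.8 TPM).

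HSPA5, also known as BiP, is the ER member of the HSP70 family and holds the sensors inactive when bound to them. The gene spans chr9:125234853-125241382 on the minus strand (GENCODE release 44, GRCh38). HSPA5 was at 271, 271 and 274 TPM in untreated and 286, 288 and 293 TPM in dox libraries of Pa-Tu-8902. In MIA PaCa-2 it was at 233, 212 and 225 TPM without and 257, 254 and 252 TPM with dox. These TPM values did not overlap in either line, yet the differences were slight, and counts normalized by TMM did overlap in Pa-Tu-8902. In Pa-Tu-8902 the log2 change was 0.0055 (SE 0.053, adjusted p = 0.942), with a sign that turned when untreated replicate 1 or 2 was left out, and for MIA PaCa-2 it was 0.14 (SE 0.060, adjusted p = 0.084). Mean normalized counts were 25960 ± 1260 and 26058 ± 797 (SD, n = 3) in Pa-Tu-8902.

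HSP90B1, or GRP94, is the ER member of the HSP90 family (chr12:103930107-103953931, plus strand). It was at 519, 506 and 476 TPM in untreated and 592, 574 and 584 TPM in dox libraries of Pa-Tu-8902, without overlap, and was 1.13-fold higher by normalized counts (log2 0.18, SE 0.046, adjusted p = 0.00817). In MIA PaCa-2 it was at 335, 296 and 316 TPM without and 320, 343 and 332 TPM with dox. These ranges overlapped and the log2 change was 0.023 (SE 0.062, adjusted p = 0.792), with a sign that turned when untreated or dox replicate 3 was left out. The change did not differ between the lines beyond its error (difference 0.16, SE 0.081, adjusted p = 0.176).

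CALR encodes calreticulin, a calcium-binding lectin chaperone of glycoproteins (chr19:12938578-12944489, plus strand), and was the most abundant of the 10. In Pa-Tu-8902 it rose from 705, 709 and 727 TPM to 985, 1106 and 1019 TPM. This was 1.38-fold by normalized counts (log2 0.46, SE 0.072, adjusted p = 0.000322). In MIA PaCa-2 it went from 471, 437 and 473 TPM to 569, 587 and 551 TPM, 1.18-fold (log2 0.24, SE 0.060, adjusted p = 0.00785), again without overlap. The adjusted p in MIA PaCa-2 stayed below 0.01 in 1 of 6 fits with a library left out, against 6 of 6 in Pa-Tu-8902. The difference between the lines was 0.22 (SE 0.101, adjusted p = 0.119).

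DNAJB9, or ERdj4, is an HSP40-type co-chaperone of HSPA5 that also keeps IRE1 in check (chr7:108569867-108574850, plus strand). In MIA PaCa-2 it was at 7.34, 5.46 and 6.68 TPM in untreated and 15.1, 15.9 and 15.3 TPM in dox libraries. Every dox library lay above every untreated one. Normalized counts rose 2.16-fold, from 280 ± 14 to 604 ± 61.3 (SD, n = 3; log2 1.11, SE 0.097, adjusted p = 6.1e-06). In Pa-Tu-8902 the levels were 5.71, 4.56 and 3.93 TPM without and 6.43, 6.68 and 10.1 TPM with dox, and normalized counts rose 1.64-fold, from 214 ± 17.1 to 350 ± 24.0 (log2 0.71, SE 0.102, adjusted p = 0.000182). The third dox library of Pa-Tu-8902 stood apart in TPM but not in counts. RSEM gave DNAJB9 an effective length of 1526 bases there, against 2011 and 2151 bases in the other two, and put 43.5% of the gene's TPM on isoforms other than DNAJB9-201, against 22.2% and 14.8%. With these lengths as offsets the call in Pa-Tu-8902 was lost (log2 0.64, adjusted p = 0.0228), whereas counts of DNAJB9-201 alone, an alternative chosen after seeing the data, gave 0.72 (SE 0.097, adjusted p = 0.000121). The response did not differ between the lines at the threshold used (difference -0.39, SE 0.143, adjusted p = 0.0502).

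SDF2L1 is a luminal partner of ER HSP40 co-chaperones (chr22:21642302-21644299, plus strand). It was at 78.2, 70.0 and 74.0 TPM in untreated and 77.6, 90.4 and 83.8 TPM in dox libraries of Pa-Tu-8902, which overlapped (log2 0.12, SE 0.085, adjusted p = 0.285). For MIA PaCa-2 the levels were 52.2, 55.6 and 52.0 TPM without and 47.7, 45.7 and 42.9 TPM with dox. Here the dox libraries all lay below the untreated ones, although the adjusted p missed the threshold (log2 -0.31, SE 0.098, adjusted p = 0.0234). The difference between the lines was 0.43 (SE 0.140, adjusted p = 0.0301).

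PDIA4, or ERp72, is a protein disulphide isomerase (chr7:149003062-149028662, minus strand). It rose in Pa-Tu-8902 from 115, 113 and 120 TPM to 147, 154 and 152 TPM (1.23-fold, log2 0.30, SE 0.063, adjusted p = 0.00246). MIA PaCa-2 libraries held 215, 194 and 216 TPM without and 199, 201 and 191 TPM with dox, with overlapping TPM and a log2 change of -0.14 (SE 0.056, adjusted p = 0.0734), although normalized counts did not overlap. The response of PDIA4 differed between the lines by 0.44 (SE 0.090, adjusted p = 0.00148). This difference is 1.35-fold, below the fold limit for a call, and it kept an adjusted p below 0.01 with each of the 12 libraries left out in turn.

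CRELD2 is a luminal calcium-binding protein with isomerase-type activity (chr22:49918167-49927540, plus strand). Its levels in Pa-Tu-8902 were 35.9, 34.2 and 36.2 TPM in untreated and 43, 42.9 and 44.3 TPM in dox libraries, without overlap (1.16-fold, log2 0.22, SE 0.057, adjusted p = 0.00948). In MIA PaCa-2 they were 42.3, 47.2 and 42.8 TPM without and 38.8, 39.7 and 39.6 TPM with dox. The dox libraries were the lower ones there, with a log2 change of -0.23 (SE 0.097, adjusted p = 0.0834). The difference between the lines was 0.44 (SE 0.121), with an adjusted p of 0.0116 that fell just outside the threshold.

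MANF is a secreted ER-resident factor with neurotrophic activity that binds HSPA5 (chr3:51385291-51389397, plus strand). It was at 54.2, 52.2 and 56.0 TPM in untreated and 50.2, 50.1 and 52.1 TPM in dox libraries of Pa-Tu-8902 (log2 -0.16, SE 0.082, adjusted p = 0.128). The MIA PaCa-2 libraries were at 56.3, 73.9 and 62.8 TPM without and 57.6, 66.1 and 61.1 TPM with dox. Untreated replicate 2 was the highest library there and the groups overlapped, with a log2 change of 0.052 (SE 0.083, adjusted p = 0.644) that turned negative on the TPM scale, with effective lengths as offsets and without untreated replicate 1. MANF was the gene of the 10 least alike to the others over the 12 libraries (Pearson r = 0.0782 with the mean profile, which includes MANF).

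HERPUD1 is a ubiquitin-like membrane protein of the complex that exports misfolded proteins for degradation (chr16:56932142-56944864, plus strand). In MIA PaCa-2 it rose from 30.5, 28.8 and 33.6 TPM to 43.4, 42 and 43.8 TPM. By normalized counts this was 1.3-fold, from 1057 ± 32.5 to 1369 ± 33.0 (SD, n = 3; log2 0.37, SE 0.063, adjusted p = 0.000701). In Pa-Tu-8902 it was at 26.7, 27.0 and 27.6 TPM without and 29.9, 28.5 and 27.2 TPM with dox. Counts and TPM disagreed on the direction in Pa-Tu-8902: the log2 change was -0.16 (SE 0.067, adjusted p = 0.0682) in counts and 0.072 (SE 0.059) on log2(TPM + 1), and the effective length of the gene was 1416 to 1449 bases in untreated and 1221 to 1353 bases in dox libraries. The response of HERPUD1 differed between the lines by -0.53 (SE 0.093, adjusted p = 0.000348), and on log2(TPM + 1) by -0.39 (SE 0.093, adjusted p = 0.00943). With effective lengths as offsets the difference was -0.41, with an adjusted p of 0.0151.

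In the test of whether dox acted differently in the 2 lines, none of the 10 genes was called, where 10.4% of 16544 genes were, and 2, PDIA4 and HERPUD1, passed the adjusted p alone, where 16.9% did. PDIA4 changed more in Pa-Tu-8902 and HERPUD1 more in MIA PaCa-2. No difference among the 10 reached the fold limit, the largest being -0.53 for HERPUD1. An adjusted p below 0.05 with that limit could therefore only give 0 called genes. In DESeq2 the count of called genes was also 0.

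XBP1, the bZIP transcription factor of the IRE1 branch (chr22:28794555-28800597, minus strand), rose in both lines. In Pa-Tu-8902 it went from 50.4, 54.6 and 56.5 TPM to 63.9, 67.2 and 71.9 TPM (1.24-fold, log2 0.32, SE 0.074, adjusted p = 0.00462). In MIA PaCa-2 it went from 41.6, 35.8 and 40.9 TPM to 53.2, 53.2 and 53.7 TPM (1.29-fold, log2 0.37, SE 0.059, adjusted p = 5e-04). Dox and untreated libraries did not overlap in either line, and the difference between the responses was -0.052 (SE 0.101, adjusted p = 0.772), with a sign that turned when untreated replicate 3 or dox replicate 1 of Pa-Tu-8902 was left out.

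The isoforms of XBP1 moved differently from the gene. The isoform that lacks the 26-base intron, XBP1-202, was at 9.89, 8.50 and 8.91 TPM in untreated and 4.48, 3.63 and 5.82 TPM in dox libraries of Pa-Tu-8902, while the unspliced XBP1-201 was at 39.0, 42.8 and 45.5 against 56.5, 59.4 and 62.3 TPM. All dox libraries were below all untreated ones for the spliced isoform and above them for the unspliced one. The spliced share of the pair was 20.2%, 16.6% and 16.4% without and 7.35%, 5.76% and 8.54% with dox, or 17.7% ± 2.17 and 7.22% ± 1.39 (SD, n = 3). The mean difference was -10.5 percentage points.

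In MIA PaCa-2 the spliced isoform was far less abundant, at 0.17, 0.32 and 0.65 TPM in untreated and 1.78, 1.17 and 1.16 TPM in dox libraries. The unspliced isoform was at 39.9, 33.8 and 38.7 against 49.2, 50 and 50.4 TPM. The spliced share was 0.424%, 0.938% and 1.65% without and 3.49%, 2.29% and 2.25% with dox, or 1.01% ± 0.617 and 2.68% ± 0.708 (SD, n = 3), a mean difference of 1.67 percentage points in the other direction from that of Pa-Tu-8902. The groups did not overlap in either line, and the exact two-sided permutation test gave p = 0.1 in each, the smallest value that 3 against 3 libraries allow.

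The changes of the spliced share in the 2 lines differed by -12.2 percentage points. Permutation of the dox labels within each line gave p = 0.005, the smallest value that its 400 arrangements allow. It assumes no dox effect in either line, so it does not test the difference alone. The share moved one way in all libraries of 1 line and the other way in all libraries of the other. Few fragments carried the estimate in MIA PaCa-2, where RSEM assigned 3.70, 7.39 and 13.4 expected counts to the spliced isoform in untreated and 33.0, 20.9 and 27.8 in dox libraries. In Pa-Tu-8902 it assigned 184, 199 and 188 against 98.2, 104 and 117. The share also rests on the isoform models, because in the annotation the authors used XBP1-202 is 1131 bases long, equal to its coding length with the stop codon in GENCODE release 44, whereas XBP1-201 has 1850 bases. If that model holds no untranslated ends, fragments from the ends of spliced molecules cannot be assigned to it, and the share is not a direct reading of the 26-base junction. By expected counts the share in Pa-Tu-8902 went from 10.6% ± 1.45 to 4.11% ± 0.791 (SD, n = 3), and that in MIA PaCa-2 from 0.554% ± 0.343 to 1.48% ± 0.402.

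**Figure D3:**
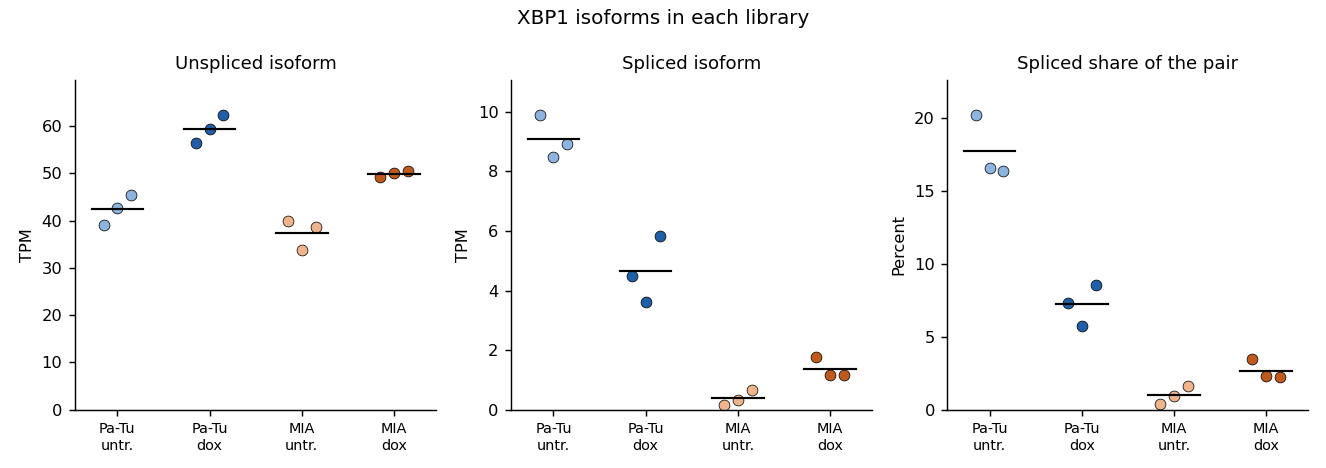
Unspliced and spliced XBP1 isoforms in TPM, and the spliced share of their sum in percent (y axes, each from 0), in the 3 libraries (points) of each group, with group means as bars. The unspliced isoform is higher with dox in both lines, whereas the spliced share is 5.76% to 8.54% with and 16.4% to 20.2% without dox in Pa-Tu-8902, and 2.25% to 3.49% with and 0.424% to 1.65% without dox in MIA PaCa-2.

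The 5 genes with the classical ER stress element had log2 changes of 0.01 to 0.46 (median 0.22) in Pa-Tu-8902, against -0.23 to 0.37 (median 0.14) in MIA PaCa-2. The 5 genes without it ranged from -0.16 to 0.71 (median 0.12) and from -0.31 to 1.11 (median 0.05). SDF2L1 and HERPUD1, which hold the related element, are among these 5. The ranges overlapped, and DNAJB9, the gene with the largest change in both lines, was among those in whose windows the element was not found.

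The next genes described were 11 lists of other ER and folding genes, 179 in all and none of them among the 10, from the same comparisons, and their counts stand beside the shares of all genes called higher and lower given above. In Pa-Tu-8902, 17 of the 172 genes tested were called higher and 10 lower, with a median log2 change of 0.11. In MIA PaCa-2, 2 of 173 were called higher and 9 lower, with a median of 0.06.

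Among the stress sensors and their processing proteases, 1 of 6 was called higher in Pa-Tu-8902 and 1 lower in MIA PaCa-2. ATF6B, a relative of ATF6, rose in Pa-Tu-8902 (log2 0.59, SE 0.048, adjusted p = 3.47e-06), and MBTPS2, the protease that makes the second cut of ATF6, fell in MIA PaCa-2 (log2 -0.67, SE 0.071, adjusted p = 2.32e-05). ERN1, which encodes IRE1, had log2 changes of 0.15 (SE 0.077, adjusted p = 0.132) in Pa-Tu-8902, with a sign that turned with effective lengths as offsets, and 0.21 (SE 0.089, adjusted p = 0.0775) in MIA PaCa-2. EIF2AK3 was higher in Pa-Tu-8902 (log2 0.40, SE 0.078, adjusted p = 0.00152) and had a log2 change of -0.17 (SE 0.096, adjusted p = 0.182) in MIA PaCa-2. ATF6 had log2 changes of -0.16 (adjusted p = 0.0383) and 0.15 (adjusted p = 0.0875).

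In the PERK branch, with ATF4 and CHOP, more genes were called lower than higher. In Pa-Tu-8902, 4 of 12 genes were called lower and 1 higher, with a median log2 change of -0.28, and in MIA PaCa-2 3 were called lower and 1 higher, with a median of -0.05. By the adjusted p alone, 6 were lower and 2 higher in Pa-Tu-8902, against 3 lower and 2 higher in MIA PaCa-2. DDIT3, which encodes the pro-apoptotic factor CHOP, fell in both lines (Pa-Tu-8902 log2 -0.79, SE 0.089, adjusted p = 3.6e-05, and MIA PaCa-2 log2 -0.61, SE 0.142, adjusted p = 0.0054). The DDIT3 call in MIA PaCa-2, 1 of the 3 lower ones there, held in 2 of 6 fits with a library left out, those without untreated or dox replicate 3, and in 6 of 10 other settings (adjusted p up to 0.0213). ATF4 was lower in Pa-Tu-8902 (log2 -0.41, SE 0.062, adjusted p = 0.000269) without reaching 1.5-fold, and had a log2 change of -0.04 (SE 0.067, adjusted p = 0.674) in MIA PaCa-2, with a sign that turned on the TPM scale. PPP1R15A, the phosphatase subunit that ends PERK signalling, fell in Pa-Tu-8902 (log2 -0.65), where BBC3, the BH3-only protein PUMA, rose (log2 1.07). PPP1R15A was higher in MIA PaCa-2 (log2 0.56, adjusted p = 0.000343) without reaching 1.5-fold. In MIA PaCa-2, TRIB3, a pseudokinase induced by ATF4, and NUPR1, a stress-induced chromatin protein, fell (log2 -0.63 and -1.71), and TNFRSF10B, the death receptor DR5, rose (log2 0.68). NUPR1 was at 1.33, 1.51 and 2.62 TPM without and 0.1, 0.87 and 0.84 TPM with dox in MIA PaCa-2, and its call was lost in 3 of 10 other settings, with a log2 change of -0.83 on log2(TPM + 1).

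Other ER chaperones and co-chaperones were called in both directions in Pa-Tu-8902, 3 of 19 higher and 1 lower, and in MIA PaCa-2 1 of 19 was called higher. SERPINH1, the collagen chaperone HSP47, and SIL1, the nucleotide exchange factor of HSPA5, rose in Pa-Tu-8902 (log2 1.17 and 0.65), while HYOU1, an ER HSP70 relative, fell (log2 -0.65, SE 0.052, adjusted p = 3.01e-06). CDNF, the paralogue of MANF, rose in MIA PaCa-2 (log2 1.34, SE 0.306, adjusted p = 0.00463). That call was lost without untreated replicate 3, dox replicate 2 or dox replicate 3 (adjusted p up to 0.021) and in 3 of 10 other settings, with a log2 change of 0.70 on log2(TPM + 1). Of the other disulphide isomerases and oxidases, 3 of 18 were called higher in Pa-Tu-8902 and none in MIA PaCa-2. PDIA5 was among them (log2 0.87), as was CASP4 (log2 1.13), a caspase rather than an oxidoreductase, without which the count was 2 of 17.

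In ER-associated degradation, 2 of 25 genes were called higher and 2 lower in Pa-Tu-8902, and 3 were called lower in MIA PaCa-2. HERPUD2, the paralogue of HERPUD1, fell in both lines (Pa-Tu-8902 log2 -1.21, SE 0.066, adjusted p = 2.14e-07, and MIA PaCa-2 log2 -1.03, SE 0.077, adjusted p = 2.04e-06). SELENOK fell in Pa-Tu-8902 (log2 -0.82), where the trimming mannosidase MAN1B1 and the ubiquitin ligase RNF5 rose (log2 0.68 and 0.65), and DERL2, a derlin of the export channel, fell in MIA PaCa-2 (log2 -0.79). In the N-glycosylation list, ALG12 was the 1 gene of 17 called higher in Pa-Tu-8902 (log2 0.73), and RPN2, an oligosaccharyltransferase subunit, the 1 called lower in MIA PaCa-2 (log2 -0.77).

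For COPII export, 3 of 19 genes were called higher in Pa-Tu-8902, among them the coat subunits SEC23A and SEC24D (log2 0.80 and 0.95), and none was called in MIA PaCa-2, where 3 were higher and 2 lower by the adjusted p alone. Of 16 ER calcium genes, the reticulocalbin RCN1 and the calcium channel ITPR1 were called higher in Pa-Tu-8902 (log2 0.81 and 0.73) and ITPR3 lower (log2 -0.83), and none was called in MIA PaCa-2. Translocation and signal peptide cleavage had no called gene among 20 in either line, with 4 higher and 2 lower in Pa-Tu-8902 and 6 higher and 1 lower in MIA PaCa-2 by the adjusted p alone. CREB3L2, an ER membrane-bound bZIP factor, was the 1 of 3 tested that was called higher in Pa-Tu-8902 (log2 0.77), and none of 4 was called in MIA PaCa-2. Cytosolic heat shock chaperones, a pathway outside the ER, were called lower for 2 of 17 genes in Pa-Tu-8902 and for 1 in MIA PaCa-2. DNAJB1 fell in both lines (log2 -1.30 and -0.86) and HSP90AA1 in Pa-Tu-8902 (log2 -0.59), where 10 of the 17 were lower and 1 higher by the adjusted p alone. For MIA PaCa-2 the adjusted p alone gave 6 higher and 3 lower, with a median log2 change of 0.03. HSP90AA1 lay near the fold limit, and its call held in 5 of 10 other settings and in 3 of 6 fits with a library left out. Its adjusted p stayed below 0.01 in all of these.

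**Figure D4:**
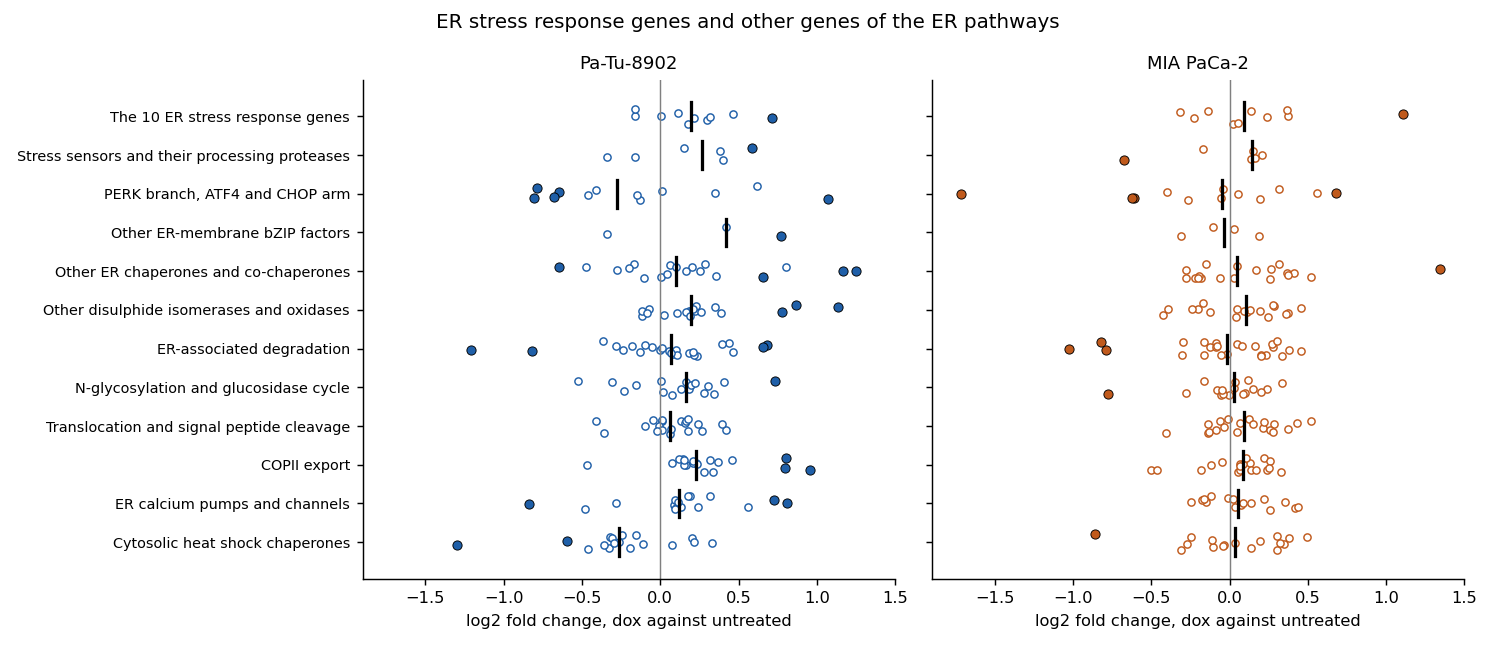
The log2 fold change of dox against untreated libraries (x axis) of each tested gene (points, vertical position within a row is arbitrary) in the 10 ER stress response genes and in each of 11 other lists, in Pa-Tu-8902 (left) and MIA PaCa-2 (right). Filled points were called and black bars are list medians, which lie at -0.28 for the PERK branch and -0.26 for cytosolic heat shock chaperones in Pa-Tu-8902 and between -0.05 and 0.15 for every list in MIA PaCa-2.

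Between the untreated lines, 2 of the 10 genes were called, HSP90B1 and PDIA4. These libraries are the same as those of the dox comparisons, and each line is 1 line, not a sample of tumours. HSP90B1 was called higher in Pa-Tu-8902 (1.61-fold, log2 0.69, SE 0.071, adjusted p = 8.74e-07), and PDIA4 was called lower (1.85-fold, log2 -0.89, SE 0.069, adjusted p = 5.47e-08). Of the 15608 genes tested, 58.1% were called. By the adjusted p alone 8 of 10 differed, where 72.9% did, and all 10 had normalized counts without overlap between the lines, as did 81.7% of genes.

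CALR lay at the fold limit (log2 0.58, SE 0.069, adjusted p = 3.9e-06) and was called in 6 of 10 other settings, among them DESeq2, and without any 1 of the 3 Pa-Tu-8902 libraries. SDF2L1 (log2 0.42, SE 0.097, adjusted p = 0.00142), XBP1 (log2 0.31, SE 0.076, adjusted p = 0.00233) and HSPA5 (log2 0.24, SE 0.069, adjusted p = 0.00524) were higher in Pa-Tu-8902. DNAJB9 (log2 -0.53, SE 0.119, adjusted p = 0.0011) and CRELD2 (log2 -0.36, SE 0.098, adjusted p = 0.00415) were lower. With single libraries left out, the adjusted p of CRELD2 stayed below 0.01 in 3 of 6 fits (up to 0.0897) and missed it without any 1 of the Pa-Tu-8902 libraries, that of SDF2L1 and HSPA5 stayed below in 4, and that of XBP1 and DNAJB9 in 5. HSPA5 also missed it with effective lengths as offsets (0.0241) and with the replicate number as a block (0.0263), and DNAJB9 missed it in 2 of 10 other settings (up to 0.0567). MANF and HERPUD1 had log2 differences of -0.19 (SE 0.085, adjusted p = 0.0522) and -0.20 (SE 0.076, adjusted p = 0.0279). Of the sensors, ATF6 was lower in Pa-Tu-8902 (log2 -1.56, SE 0.077, adjusted p = 4.65e-10), ERN1 had a log2 difference of -0.32 (SE 0.1, adjusted p = 0.0109) and EIF2AK3 one of 0.31 (SE 0.102, adjusted p = 0.0134). Untreated spliced XBP1 shares did not overlap either, being 16.4% to 20.2% in Pa-Tu-8902, against 0.424% to 1.65% in MIA PaCa-2.

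**Figure D5:**
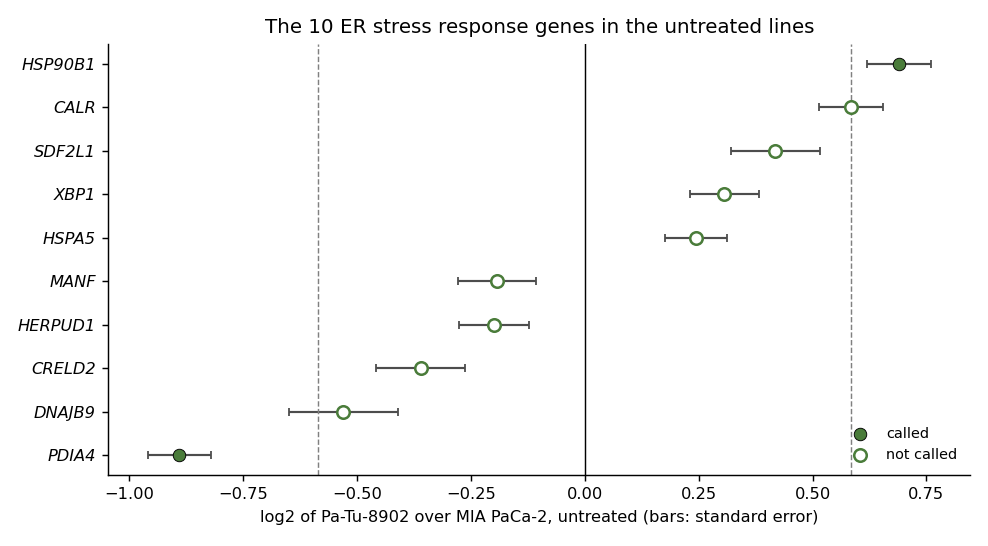
The log2 ratio of untreated Pa-Tu-8902 over untreated MIA PaCa-2 (x axis) with its standard error for each of the 10 genes, 3 libraries against 3, ordered by the ratio. Dashed lines mark 1.5-fold, and filled points, HSP90B1 at 0.69 and PDIA4 at -0.89, were called.

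The genes whose profile over the 12 libraries was most like the mean of the 10 were TUSC2 (Pearson r = 0.98), CDC34 (0.976), CCDC124 (0.975), ERG28 (0.967) and C17orf49 (0.967), out of 11651 genes compared, with levels centred within each line. Of the 10 genes themselves, CALR (0.948) and XBP1 (0.922) followed the mean most closely, and SDF2L1 (0.105) and MANF (0.0782) least. Each of these points shares the dox contrast and the library with the others, and each of the 10 genes is part of the mean it was compared with.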

How the data were processed

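Deposited tables of 12 RNA-seq libraries were used, grouped by the sample titles. From the study's methods and the submitters' processing notes, the authors trimmed reads with Trimmomatic 0.39 and quantified them with RSEM 1.3.1 calling STAR 2.5.2a, on GRCh38 with GENCODE v29 genes. The deposited expected counts are estimated, unnormalized counts, with 15.3% of those above 0 more than 1e-06 from a whole number. The deposited TPM values, by the authors' RSEM runs, are relative to each library's transcript total and are scaled by effective length. Effective gene lengths and isoform model lengths are in bases, as deposited in the per-library files. Fragments shared between isoforms were split by RSEM's model.

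Counts were rounded and tested with edgeR 4.0.16 (glmQLFit and glmQLFTest) in R 4.3.3, with TMM normalization, and genes had to reach 10 counts in 3 or more of the libraries compared. P-values were adjusted by the Benjamini-Hochberg method over all genes tested. Standard errors are the absolute log2 change over the square root of F. Normalized counts are scaled to the mean effective library size of a comparison. Each line was fitted alone, and a difference between lines was the interaction term of a fit to all 12 libraries. The code was tested on simulated data. Isoform shares were compared by exact permutation. Alternatives used DESeq2 1.42.0 and limma 3.58.1 on log2(TPM + 1) and log2(TPM + 0.1), other filters, effective lengths as offsets and left-out libraries.

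The 10 genes and the lists were chosen with earlier results of these data known. The genes named outside the 10 are GOT1, ATF4, DDIT3, ATF6, ERN1 and EIF2AK3, the 2 genes with the smallest p among those called in each list, line and direction, and the 5 with the most similar profile (log2 CPM, at least 100 mean normalized counts). FPKM tables were not used. Sequencing depth, 26226537 to 43406137 counts per library, sets the precision through the standard errors.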

Additional observations from a re-analysis of the deposited data

Results flagged for a closer look

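The genes here are those whose response to dox differed between the lines in a test of the difference itself, at an adjusted p below 0.01 in the interaction contrast of edgeR. Of 44 named genes 24 met this, 17 with a positive and 7 with a negative difference (Pa-Tu-8902 minus MIA PaCa-2, log2), and 2 of them, PDIA4 at 0.44 and HERPUD1 at -0.53, belong to the 10 ER stress response genes. Apart from ATF4 and EIF2AK3, which were named in any case, the other genes were named because they were called in at least 1 line, so a difference between the lines was partly built into their choice. The adjusted p stayed below 0.01 in all 8 other settings and with each of 12 libraries left out for 10 of the 24 and was lost in at least 1 alternative for 14.

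The spliced share of XBP1 changed by -10.5 percentage points in Pa-Tu-8902 and by 1.67 in MIA PaCa-2, a difference of -12.2. Permutation of the dox labels within each line, which assumes no dox effect in either, gave its smallest possible p of 0.005. All 3 dox libraries lay below the untreated ones in the first line and above them in the second.

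Among sensors and the PERK branch, the difference was 0.57 for EIF2AK3, 0.45 for ATF6B, -0.37 for ATF4, -0.33 for TNFRSF10B, 2.33 for NUPR1 and -1.20 for PPP1R15A. PPP1R15A was lower in Pa-Tu-8902 (log2 -0.65, adjusted p = 2.03e-06) and higher in MIA PaCa-2 (log2 0.56, adjusted p = 0.000343), opposite directions that each passed the adjusted p. TNFRSF10B was higher in both Pa-Tu-8902 (log2 0.35, adjusted p = 0.000114) and MIA PaCa-2 (log2 0.68, adjusted p = 4.5e-06). NUPR1 fell in MIA PaCa-2 and had a log2 change of 0.62 (adjusted p = 0.0894) in Pa-Tu-8902, where its level was 0.55 to 0.96 TPM without and 0.56 to 1.01 TPM with dox. The NUPR1 difference was as low as 0.82 on log2(TPM + 1) and was called in 5 of 8 other settings (adjusted p up to 0.15). That of EIF2AK3 fell to 0.31 (adjusted p up to 0.351), and that of ATF4 stayed below an adjusted p of 0.01 in 2 of 12 fits with a library left out, those without Pa-Tu-8902 dox replicate 2 or MIA PaCa-2 untreated replicate 2.

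Among folding and export genes the difference was 0.79 for SERPINH1, 0.49 for SIL1, -0.42 for HYOU1, 1.02 for CASP4, 0.74 for PDIA5, 0.88 for CREB3L2, 0.54 for SEC23A, 1.14 for SEC24D, 0.79 for RCN1 and -0.82 for ITPR3. It was 0.56 for DERL2, 0.48 for MAN1B1, 0.61 for RNF5, 0.47 for RPN2 and 0.64 for ALG12. DNAJB1, which fell in both lines, had a difference of -0.44.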

How the results depend on the processing

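The number of the 10 genes called was 1 in each line, 0 for the difference between the lines and 2 between the untreated lines. Within the lines and for their difference it stayed so under most alternatives. Between the untreated lines the number was 3, with CALR, in DESeq2 with and without shrunken changes and with DESeq2 size factors in edgeR. It was also 3, with CALR, in limma on both TPM scales and in 1 fit of all 12 libraries. In Pa-Tu-8902 it was 0 with effective lengths as offsets and 0 with limma on log2(TPM + 1) or log2(TPM + 0.1), where DNAJB9 had log2 changes of 0.64, 0.59 and 0.68 and adjusted p of 0.0228, 0.0309 and 0.0277 (range over 10 other settings 1.23e-08 to 0.0309). Without the fold limit the counts were 6, 4, 2 and 8. With single libraries left out they ranged from 1 to 1, 1 to 1, 0 to 0 and 2 to 3. Between the untreated lines 3 were called without any 1 of the Pa-Tu-8902 libraries (with CALR) or without MIA PaCa-2 replicate 2 (with DNAJB9). Among genes past the adjusted p alone in Pa-Tu-8902, CALR and DNAJB9 stayed below 0.01 in 6 of 6 such fits, PDIA4 in 4, XBP1 in 3, and HSP90B1 and CRELD2 in 2; in MIA PaCa-2, DNAJB9, HERPUD1 and XBP1 did in 6 and CALR in 1. The change of the spliced XBP1 share was -6.5 and 0.929 percentage points by expected counts, and -11.2 to -9.26 and 1.26 to 1.99 with a library left out. Directions turned in 5 of 40 values of the 10 genes and in 2 of 70 of other named genes, none past the threshold. Calls, counting loss of the fold limit alone as a change, changed in at least 1 alternative for 17 of the 40 and 30 of the 70. Of 762 alternative values of the 10 genes 3 lost a call and 26 gained one, and of 1348 of the other named genes 52 lost a call and 34 gained one. HERPUD1 in Pa-Tu-8902 was 0.0021 with effective lengths as offsets and 0.0721 and 0.0744 with limma on TPM; MANF in MIA PaCa-2 was -0.1382, -0.0549 and -0.0556 in the same settings and -0.0124 to 0.1405 with a library left out (lowest without untreated replicate 1). With a library left out, HSPA5 in Pa-Tu-8902 ranged from -0.0174 to 0.0515 (negative without untreated replicate 1, -0.0127, or 2), HSP90B1 in MIA PaCa-2 from -0.0302 to 0.0466 (negative without untreated replicate 3 or dox replicate 3, -0.0022), and the XBP1 difference from -0.0983 to 0.0276 (positive without Pa-Tu-8902 untreated replicate 3 or dox replicate 1, 0.0204). ERN1 in Pa-Tu-8902 was -0.0114 with effective lengths, and ATF4 in MIA PaCa-2 0.0153 and 0.0153 with limma on TPM and -0.0775 to 0.0194 with a library left out (positive without untreated replicate 2). The causes were not tested. Same-numbered libraries shared no consistent deviation (correlations from -0.288 to 0.32 over 9 pairs), so the numbers were not taken to pair them, and with the replicate block the counts were also 1, 1, 0 and 2 (2380, 1735, 1611 and 8891 over all genes). Over all genes in MIA PaCa-2, limma on log2(TPM + 1) called 1082 against 1751. Shrunken DESeq2 changes were not run for the difference between the lines.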
